A study of Mus musculus with 2 samples.

Results

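Microglia, the resident macrophages of nervous tissue, are told apart from other macrophages by a small set of abundant transcripts, and 9 of these were followed here: Tmem119, Siglech, Fcrls, Gpr34 and Selplg, which encode cell surface proteins, Olfml3 and Golm1, whose products are secreted or can be released, the sugar transporter gene Slc2a5, and Crybb1. They were taken by name, as homeostatic markers outside the purine receptor and TGF-beta genes, and all 9 were found among the 13549 genes of the deposited table. Crybb1 encodes a crystallin, known as a soluble structural protein of the eye lens, so the description as surface or secreted does not cover it. The 2 libraries came from mouse retina at postnatal day 5, by bulk RNA sequencing of sorted cells. All animals had the genotype CD11c-Cre-gfp;Rosa-TDTom, in which the CD11c promoter drives Cre and GFP, and Cre switches on TdTomato for good. Cd11c-active cells carried both colours (4041 cells), and Cd11c-lineage cells carried TdTomato without GFP (5441 cells). Each population came from 8 retinas, given as 4 female and 4 male without the number of animals, and each gave 1 library. Whether the 2 populations shared retinas is not known here. There was thus no replicate check, and no test between the conditions was possible. The CD11c promoter is also used by dendritic cells and some other macrophages, so the colours alone do not define microglia.

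Homeostatic genes are those that microglia express in the steady state of healthy tissue. Many of them are known to fall when microglia take on the disease-associated or developmental state, in which Itgax, the gene for CD11c, is switched on. Several need continued signals from the surrounding nervous tissue and are lost quickly when the cells are taken out of it. Their proteins sense lipids, sialic acids and other cell surface ligands, and the genes are used as labels because blood-derived and border macrophages express little of most of them.

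The libraries were of like depth, 12943998 reads for Cd11c-active and 13402625 for Cd11c-lineage, and a count of 0 allows up to 0.243 and 0.214 CPM (read counts per 1e6 reads of a library, scaled with TMM factors). These limits and all intervals cover counting error only. Other microglial genes were high in both libraries, among them Csf1r at 6405 and 6580 CPM, in the order Cd11c-active and Cd11c-lineage, which is kept below. Markers of other cells differed between the libraries. All 9 endothelial markers had higher levels in Cd11c-active, where they summed to 727 CPM against 73.7 CPM, and 5 of them, with Cldn5 the most abundant, were at 0 in Cd11c-lineage. In bulk samples fewer cells of a type and less RNA per cell cannot be told apart. Of 10 border macrophage markers 6 were listed, and F13a1, Lyve1, Cd163 and Ms4a7 were at 0 in Cd11c-active and at 2.99 to 18.1 CPM in Cd11c-lineage. Mrc1 had 21.2 and 87.5 CPM, and the list summed to 1587 and 1482 CPM because of Stab1. Retinal neuron markers, 10 of 14 listed, summed to 137 and 260 CPM. Of the monocyte and neutrophil list 4 of 9 were listed, with sums of 2.83 and 17.0 CPM. The part of these cells in the values below was not tested.

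All 9 homeostatic genes were well expressed in both libraries, with 2586 to 73980 reads each over the pair, and none differed by as much as 2-fold. Their summed reads were 75015 and 86586, which is 0.580% of the first library (exact Clopper-Pearson 95% interval 0.575 to 0.584) and 0.646% of the second (0.642 to 0.650). After TMM scaling the sums were 6076 and 6162 CPM, a log2 ratio of Cd11c-active over Cd11c-lineage of -0.02 (95% counting interval -0.03 to -0.01). Fcrls alone gave 46.9% and 44.8% of these reads, and without it the log2 ratio of the sum was -0.08. Gene by gene, Gpr34, Olfml3 and Fcrls had ratios above 0 and the other 6 had ratios below 0, with a median of -0.13. Scaling to library totals, without the TMM factors, lowered the ratio of every gene by 0.14, and Olfml3 and Fcrls then had ratios below 0 as well (-0.05 and -0.09). The authors' deposited table gives log2 fold changes on that scale, from -0.69 for Slc2a5 to 0.09 for Gpr34, and 8 of its 9 values are below 0.

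**Figure D1:**
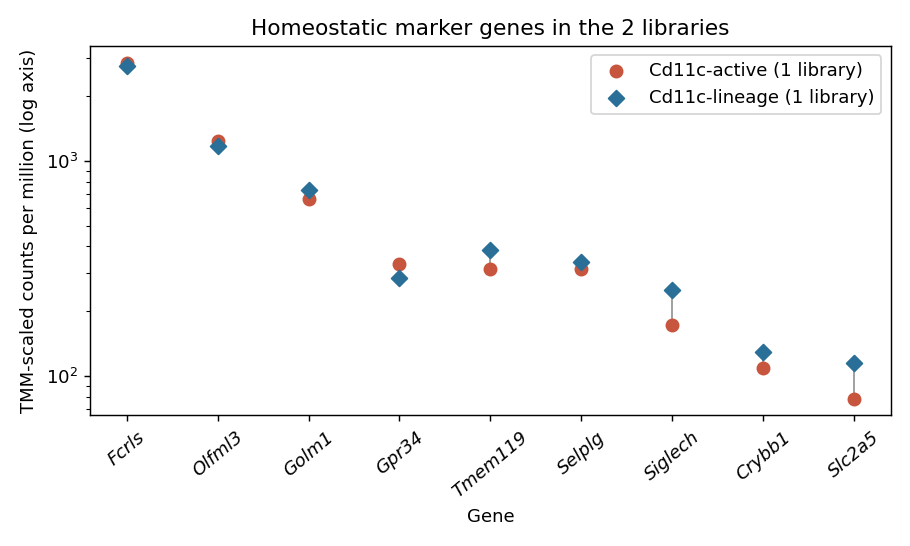
TMM-scaled CPM on a log axis for each of the 9 homeostatic genes, with circles for the Cd11c-active library and diamonds for the Cd11c-lineage library. The pairs of points lie close together for Fcrls and Olfml3 and farthest apart for Slc2a5 (78.5 and 115) and Siglech (173 and 252).

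A gene was called when its log2 ratio was at least 1 in either direction. By this rule 0 of the 9 genes were called, against 44.9% of the 13037 genes with at least 20 reads. Most of those calls were genes of low count, and the fitting background is the 2079 genes within the same range of reads as the 9, of which 2.98% were called. These 2079 genes had a median log2 ratio of -0.02, with the central 95% between -0.89 and 0.94, and 51.9% of them had ratios below 0. The robust SD of the ratio was 0.27 over the 9 genes and 0.43 over the 2079. Each of the 9 was also set against the 500 genes nearest to it in reads, and all 9 lay inside the central 95% of those. All 9 counting intervals left out 0, so the differences exceed independent counting of reads, but none exceeds the spread seen between these libraries in genes of like abundance. That spread was not recomputed after the removal of a length and GC trend described below, which moved Crybb1 to -0.96.

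**Figure D2:**
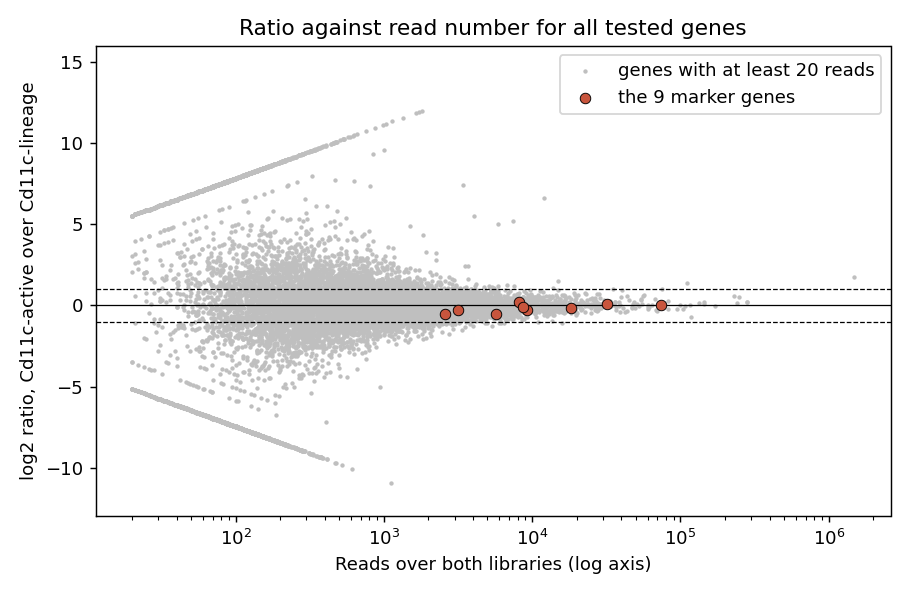
Log2 ratio of Cd11c-active over Cd11c-lineage against reads over both libraries (log axis), with 1 grey point for each gene with at least 20 reads, the 9 homeostatic genes as filled circles, and dashed lines at the 2-fold threshold. The diagonal bands are genes with 0 reads in either library, and the 9 genes sit in the narrow right-hand part of the cloud, between -0.55 and 0.22.

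Upstream sequences show what lies before the start of the genes at the ends of this range, and 6 of the 9 genes had an entry in the RefSeq promoter set for GRCm38.p6. Siglech and Slc2a5 are shown because they had the lowest ratios, and Olfml3 because it had the highest ratio among the 6. Each run holds the 250 bases before the annotated start, on the gene's strand, and capitals mark matches to the motifs named below that lie wholly inside the run. They lie at chr7:55767934-55768183 (plus strand, Siglech), chr4:150119094-150119343 (plus strand, Slc2a5) and chr3:103738002-103738251 (minus strand, Olfml3).
Siglech: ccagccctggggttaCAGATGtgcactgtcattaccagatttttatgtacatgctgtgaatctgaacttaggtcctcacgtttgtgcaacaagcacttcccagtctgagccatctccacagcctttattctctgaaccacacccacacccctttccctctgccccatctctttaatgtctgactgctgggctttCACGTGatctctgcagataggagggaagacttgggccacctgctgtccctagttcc
Slc2a5: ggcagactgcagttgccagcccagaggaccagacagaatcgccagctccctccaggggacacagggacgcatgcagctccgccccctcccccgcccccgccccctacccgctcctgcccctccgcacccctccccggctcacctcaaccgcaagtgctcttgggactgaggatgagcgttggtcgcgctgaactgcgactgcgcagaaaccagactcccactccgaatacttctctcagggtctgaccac
Olfml3: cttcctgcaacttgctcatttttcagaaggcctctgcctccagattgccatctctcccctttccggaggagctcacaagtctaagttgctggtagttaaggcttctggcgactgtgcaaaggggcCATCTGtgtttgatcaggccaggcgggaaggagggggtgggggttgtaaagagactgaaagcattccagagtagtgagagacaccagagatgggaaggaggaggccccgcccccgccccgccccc
In windows that ran on to 50 bases after the start, both strands were searched for the letters GAGGAAGT of the macrophage factor PU.1, for a pair of exact forms of the MEF2 site, and for the E-boxes CAGATG and CACGTG. The PU.1 letters and both MEF2 forms were in 0 of the 6 windows, against 3.20%, 0.164% and 0.110% of all 32851 promoter windows. CAGATG was in 3 of the 6 (Siglech, Olfml3 and Fcrls), against 17.2% of all windows, and CACGTG was in Siglech, against 7.15%. The shorter PU.1 core GAGGAA, added after the first search, was in 2 of the 6 (Fcrls and Siglech, there across the start), against 28.3%; it can overlap the longer form. Slc2a5, which had no match, was 66.4% G and C over its 250 bases, Olfml3 57.6% and Siglech 50.8%.

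Among the surface proteins, Siglech (ENSMUSG00000051504) belongs to the Siglec family, named for sialic acid-binding lectins, and signals through the adaptor encoded by Tyrobp. It had 2139 and 3539 reads, or 173 and 252 CPM. Its share of all reads was 0.0165% (exact 95% interval 0.0158 to 0.0172) against 0.0264% (0.0255 to 0.0273). The log2 ratio was -0.54 (counting interval -0.62 to -0.46). Of the 500 genes nearest in reads 10% had a lower ratio, and their central 95% ran from -0.81 to 0.92. Of the 6 listed genes of the Siglec family 5 had ratios below 0, against 49.8% of all tested genes, and Cd33 alone had over 1000 reads. Cd33, the one with the most reads, had 241 and 389 CPM and a ratio of -0.69 (-0.76 to -0.63), and Mag (11.2 and 23.8 CPM, -1.09) was the one called. The adaptor Tyrobp had 573 and 431 CPM and a ratio of 0.41 (0.36 to 0.46), above 0 where Siglech was below it. Of the 4 listed adaptor and signalling genes, which include Syk at 0.07, 0 were called, against 9.57% of all genes with at least 1000 reads, as all 4 had. Siglech is also a marker of plasmacytoid dendritic cells. Of 9 other genes of those cells, 4 were listed and 0 called (44.9% of all tested genes were), and Lag3, the one with the most reads and one that microglia also express, had a ratio of 0.94, just short of a call. The other 3 had ratios of -0.69 (Tcf4), -0.29 (Bst2) and -0.11 (Pacsin1, counting interval -0.36 to 0.12).

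Tmem119 (ENSMUSG00000054675), a membrane protein widely used to stain microglia, had 3892 and 5400 reads, or 315 and 384 CPM. Its log2 ratio was -0.29 (-0.35 to -0.23), with 23.0% of the 500 nearest genes lower. The transcript is rich in G and C (59.1%), and after a trend with transcript length and GC content over all genes was removed the ratio was -0.65.

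Fcrls (ENSMUSG00000015852), an Fc receptor-like scavenger receptor, was the most abundant of the 9, with 35207 and 38773 reads, or 2852 and 2759 CPM. By reads it stood at rank 25 of all genes in the first library and rank 22 in the second. Its log2 ratio was 0.05 (0.03 to 0.07), and it changed sign under library totals (-0.09) and after trend removal (-0.05), so no direction can be given. The listed immunoglobulin Fc receptors were lower in abundance. Fcgr3, the highest of them, had 497 and 381 RPKM, which is CPM per kilobase of the longest transcript, against 1255 and 1214 for Fcrls. Of 7 listed genes of this family 2 were called, Fcrla and Fcrl1, with 52 and 51 reads in the Cd11c-active library and 0 in the other. That share is below the 44.9% of all tested genes.

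Gpr34 (ENSMUSG00000040229), a receptor for the lipid lysophosphatidylserine, had 4102 and 4004 reads, or 332 and 285 CPM. Its log2 ratio of 0.22 (0.16 to 0.28) was the highest of the 9, and it was above 0 also under library totals (0.09). Of the nearest 500 genes 75.2% had a lower ratio. Of 11 genes around it 7 were listed, and 0 were called higher and 3 lower: the related receptor Gpr132 (0 and 65 reads) and its neighbours Cask and Gpr82. All 3 had under 500 reads, and 21.6% of all tested genes were called lower. The listed genes for enzymes of its ligand had ratios above 0, and Pla1a and Lipi, also among the 11, were not listed. Abhd16a, whose product makes lysophosphatidylserine, had 75.2 and 55.3 CPM (0.44), and Abhd12, whose product breaks it down, had 771 and 518 CPM (0.57, interval 0.53 to 0.62). Neither enzyme gene was called.

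Selplg (ENSMUSG00000048163) encodes the ligand of P-selectin, a mucin found on most leukocytes. It had 3867 and 4756 reads, or 313 and 338 CPM, a log2 ratio of -0.11 (-0.17 to -0.05), with 39.8% of the nearest 500 genes lower. The ratio was -0.25 under library totals and -0.23 after trend removal. Selplg protein binds selectins only after glycosylation and tyrosine sulfation, and 8 of 12 genes for these enzymes and the selectins were listed. The enzyme with the most reads, Gcnt1, which builds the branched glycan, had 223 and 289 CPM (-0.37, interval -0.44 to -0.30). The sulfotransferase Tpst2 had 151 and 107 CPM (0.50, 0.40 to 0.60) and was chosen after its value was seen. The sialyltransferase gene St3gal4, with 0 and 86 reads, was the 1 of the 8 that was called, against 44.9% of all tested genes.

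**Figure D3:**
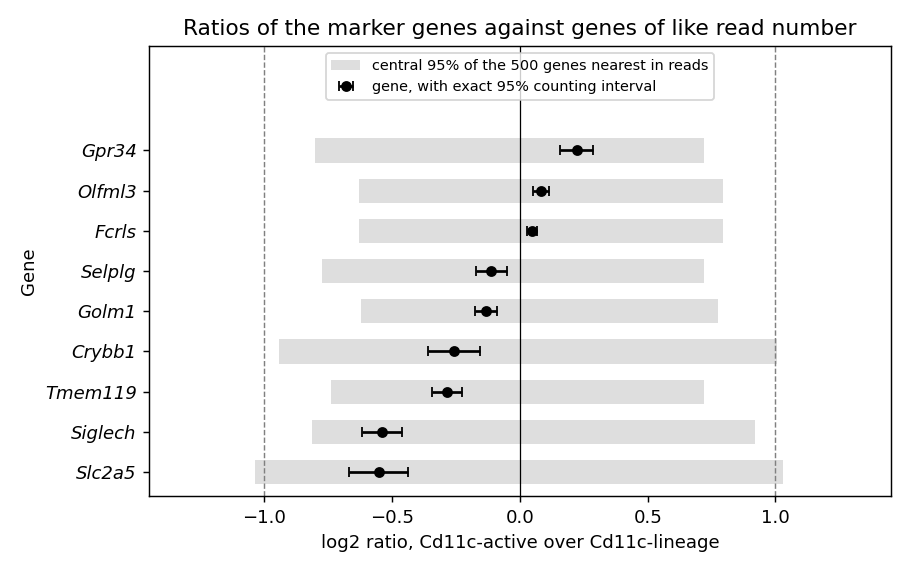
Log2 ratio of Cd11c-active over Cd11c-lineage for each of the 9 homeostatic genes, with its exact 95% counting interval as a bar on the point, over a grey band for the central 95% of the 500 genes nearest in reads. Every point lies inside its band and inside the dashed 2-fold lines, with Slc2a5 at -0.55 and Gpr34 at 0.22 as the ends.

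Olfml3 (ENSMUSG00000027848), a secreted glycoprotein with an olfactomedin domain, had 15304 and 16448 reads, or 1240 and 1171 CPM. Its log2 ratio was 0.08 (0.05 to 0.11), and -0.05 under library totals, so no direction can be given for it either. It stood far above its relatives, of which 4 of 9 were listed: Olfml2b, the highest of these, had 13.8 and 10.9 RPKM against 227 and 214 for Olfml3. Golm1 (ENSMUSG00000021556), a membrane protein of the Golgi that proprotein convertases such as furin can cleave and release, had 8196 and 10227 reads, or 664 and 728 CPM. Its log2 ratio was -0.13 (-0.17 to -0.09), and -0.27 under library totals, with 32.4% of the nearest 500 genes lower. Furin itself had 3618 and 1938 reads and was called, with a log2 ratio of 1.09 (1.01 to 1.17). Under library totals it was 0.95, which ends the call. The Golm1 paralog Golm2, with 0 and 118 reads, was the other one called of 8 Golgi genes, against 44.9% of all tested genes. Among the 7 with at least 1000 reads 1 was called, Furin, against 9.57% of all genes with that many reads.

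Slc2a5 (ENSMUSG00000028976), the fructose transporter GLUT5, had the fewest reads of the 9, 969 and 1617, or 78.5 and 115 CPM. Its log2 ratio of -0.55 (-0.67 to -0.44) was the lowest and corresponds to 1.47-fold lower in Cd11c-active. The central 95% of the nearest 500 genes ran from -1.04 to 1.03, and 17.2% of them were lower. The glucose transporter Slc2a1, which marks barrier endothelium as well as many other cells, went the other way and was called, with 2903 and 603 reads and a ratio of 2.45 (2.33 to 2.58). Its level moved with the endothelial markers given above, whose part in it was not tested. In Cd11c-lineage Slc2a5 had the highest level per length of the 6 listed transporters of the family, at 36.4 RPKM against 15.5 for Slc2a9 and 13.2 for Slc2a1. In Cd11c-active Slc2a1 led with 72.1 RPKM against 24.9 for Slc2a5. Of 8 listed genes of fructose and hexose use 4 had ratios above 0 and 4 below, with a median of -0.03, and 1 was called, the low-count gene Aldoc (74 and 0 reads). Over all tested genes 49.8% were below 0 and 44.9% were called. Khk, which phosphorylates fructose, had 49.0 and 39.1 CPM and a ratio of 0.32 (0.16 to 0.49), and Aldoa, with the most reads, had a ratio of 0.68. Below 0 were Hk2 (-0.23), Akr1b3 (-0.29), Sord (-0.42) and Tkfc (-0.71), which acts after Khk in fructose breakdown.

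Crybb1 (ENSMUSG00000029343), a beta-crystallin known as abundant in early postnatal microglia as well as in lens, had 1339 and 1822 reads, or 108 and 130 CPM. Its log2 ratio was -0.26 (-0.36 to -0.16), with 32.6% of the nearest 500 genes lower. Its transcript is the shortest of the 9 (882 bases) and the richest in G and C (61.8%), and trend removal moved the ratio to -0.96. Under library totals it was -0.39. Lens markers were nearly absent: 9 of 11 were not listed, Crybb3 had 87 and 0 reads and Bfsp1 0 and 26. Of 19 other genes named as crystallins 7 were listed, 6 with ratios above 0 and 1 below. Of these 7, 4 were called higher and 1 lower, all with under 1000 reads, against 23.3% and 21.6% of all tested genes. Cryl1, an enzyme despite its name, had the most reads, with 64.1 and 62.4 CPM and a ratio of 0.04. The beta-crystallin Cryba4 had 647 and 311 reads and was called, with a ratio of 1.24 (1.05 to 1.44), opposite in sign to Crybb1. Cryab, a small heat shock protein, had 0 and 140 reads.

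**Figure D4:**
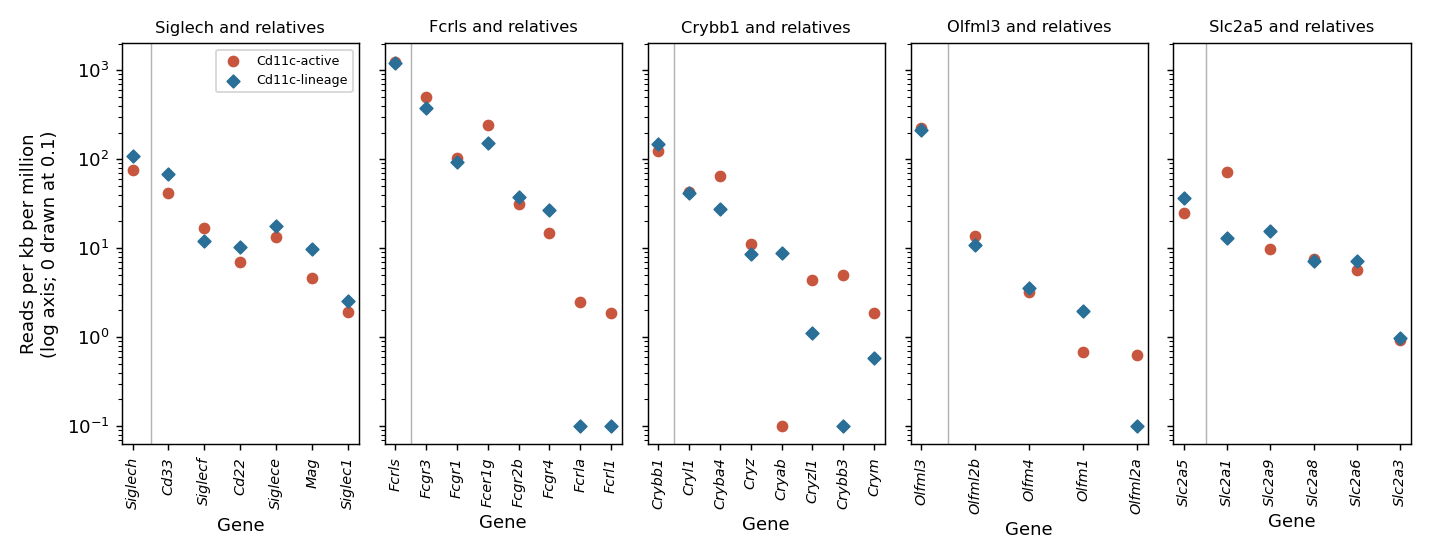
RPKM on a log axis for Siglech, Fcrls, Crybb1, Olfml3 and Slc2a5, each left of a vertical line, and for the listed genes of the same families to the right of it, with circles for Cd11c-active and diamonds for Cd11c-lineage. Siglech, Fcrls, Crybb1 and Olfml3 stand above all their listed relatives in both libraries. Slc2a1 crosses Slc2a5, at 72.1 against 24.9 in Cd11c-active and 13.2 against 36.4 in Cd11c-lineage.

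Levels can be compared between genes only per length of transcript. Fcrls led in both libraries with 1255 and 1214 RPKM and stood close to Csf1r (1362 and 1400 RPKM). Olfml3 was next with 227 and 214 RPKM, by a longest transcript of 5465 bases. The RefSeq gene spans 2608 bases in all, by which the level of Olfml3 would be at least 475 and 449, so no fold between it and Fcrls is given. Golm1 followed with 168 and 184 RPKM, a range that overlapped that of Tmem119. Gpr34 (159 and 136), Tmem119 (141 and 171), Selplg (135 and 146) and Crybb1 (123 and 147) overlapped each other between the libraries and changed places, with Gpr34 at rank 4 of the 9 in Cd11c-active and rank 7 in Cd11c-lineage. By the principal transcript, a choice made after the data were seen, Selplg had 169 and 182 RPKM and also overlapped Golm1. Siglech (75.3 and 109) and Slc2a5 (24.9 and 36.4) were lowest in both libraries. As shares of the summed reads of the 9, Fcrls and Olfml3 took 2.15 and 1.41 percentage points more in Cd11c-active, and Siglech and Tmem119 took 1.24 and 1.05 fewer.

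The rest of the homeostatic programme was given by a second list, and its difference from the 9 genes was not tested. Of 30 further homeostatic genes, all listed, 15 had ratios above 0 and 15 below, with a median of 0.00, and 1 was called in each direction, against 44.9% of all tested genes. The called genes, named after their values were seen, were both low in count: Upk1b with 37 and 0 reads and Jam2 with 177 and 708. Of the 27 with at least 1000 reads 0 were called, against 9.57% of all genes with that many reads, with Cd33 at the low end (-0.69) and Tgfa at the high end (0.61). Sall1, the transcription factor that sets microglial identity, had 745 and 752 CPM and a ratio of -0.01. Against the summed reads of 10 pan-macrophage genes such as Laptm5 and Ptprc, of which Csf1r and Ctss are also in the homeostatic list, the 9 genes had 41.6 reads per 100 in Cd11c-active and 41.2 in Cd11c-lineage.

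Genes of the developmental and disease-associated state formed a further list. Of its 24 genes 22 had ratios above 0, with a median of 0.67, and 8 were called higher and 0 lower, against 23.3% of all tested genes called higher. Among its 21 genes with at least 1000 reads the median was 0.57 and 5 were called higher, against 5.43% of the 4619 genes with that many reads. Under library totals Fth1 (1.10, then 0.96) was no longer called, which left 7 of 24 and 4 of 21, with medians of 0.54 and 0.43. Removal of the length and GC trend, which moved several of the 9 genes, was not run for this list. The 3 largest changes among the 21 were Fabp5, a fatty acid carrier (82.5 and 15.8 CPM, ratio 2.38), Cd52 (87.6 and 27.7 CPM, 1.66) and Hmox1, which breaks down heme (868 and 304 CPM, 1.51). Apoe, with the most reads, had a ratio of 0.22. Itgax had 195 and 121 CPM and a ratio of 0.69. Per 100 reads of this list the 9 homeostatic genes came to 14.6 and 19.96 reads, a log2 difference of -0.46. With 1 library per group the difference between the lists was not tested, and both were chosen with results of these data known.

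**Figure D5:**
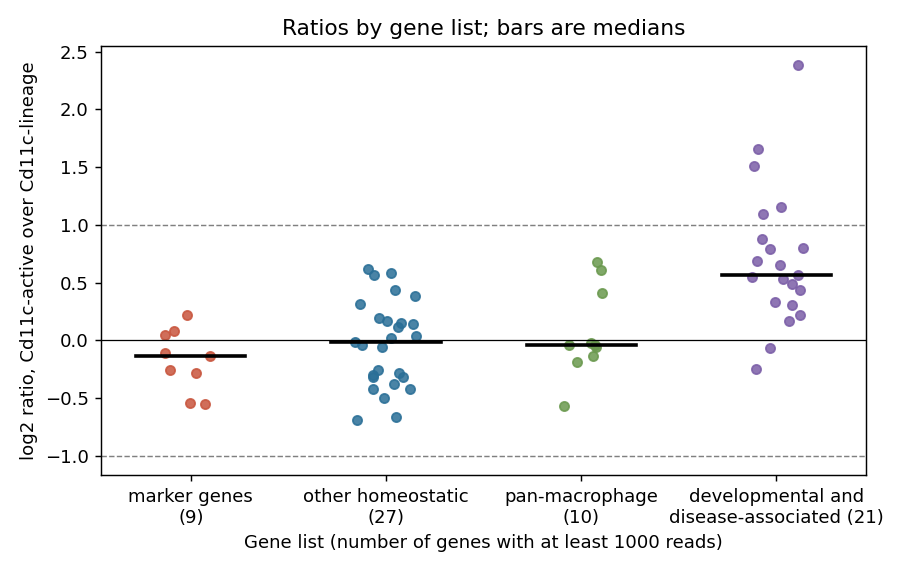
Log2 ratio of Cd11c-active over Cd11c-lineage for genes with at least 1000 reads in 4 lists, with 1 point per gene, black bars at the medians and dashed lines at the 2-fold threshold. The medians are -0.13 for the 9 homeostatic marker genes, -0.01 for 27 other homeostatic genes, -0.04 for 10 pan-macrophage genes and 0.57 for 21 developmental and disease-associated genes.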

How the data were processed

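RNA was sequenced from 2 sorted populations of mouse retinal cells, 1 library each, after depletion of ribosomal RNA and stranded library preparation, per the labels' protocols. The authors deposited raw counts per gene, per the file headers, together with log2 columns for their fold change and mean CPM. The log2 fold change is quoted for the 9 genes and was otherwise not used. The submitters' processing notes name cutadapt 3.5, STAR 2.7.9a, featureCounts 1.6.3, edgeR 4.0.16 and the build GRCm39. The use of strand in counting is not given in the sources used here, so reads of overlapping genes could be shared. The smallest sum of reads over both libraries was 6, so low genes had been removed. The table had 0 columns of unmapped samples.

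Library sizes (12943998 and 13402625 reads) were scaled with TMM factors of 0.954 and 1.05 from edgeR 4.0.16 in R 4.3.3. Ratios were taken on the log2 scale after adding 0.5 to each count and dividing by the scaled library size, with exact Clopper-Pearson 95% intervals, and genes with at least 20 reads were called at an absolute value of at least 1. With 1 library per group, edgeR's quasi-likelihood test could not be fitted. The spread between libraries was described by the 500 genes nearest in reads. Transcript length and GC content came from the longest transcript in GENCODE for GRCm38, matched to 13499 genes (99.6%). Promoter sequences are RefSeq's for GRCm38.p6, and no sequence was read for GRCm39. Of symbols shared by several identifiers the one with the most reads was used in the lists. The procedure was tested on simulated data. Python 3.11.15 with scipy 1.17.1 and pandas 2.3.3 was used, and DESeq2 1.42.0 for size factors only. The 9 genes and all lists were chosen with earlier results of these data known. The rule for named genes took the 9, the gene with the most reads in each list, up to 3 genes per list with at least 1000 reads and past the 2-fold threshold, and family relatives of the 9. Other genes are named as markers at 0, as partners or relatives, as low-count calls or at the ends of a list, and were chosen after their values were seen. Not every listed gene set is described: no erythroid gene but Hbb-bt (0 and 31 reads) was listed, of the conventional dendritic list Zbtb46 (200 and 0 reads) and Itgae (0 and 9), and of 9 pericyte and fibroblast genes 5 were listed, with sums of 62.8 and 0 CPM. Of 7 Muller glia and astrocyte genes 5 were listed, with sums of 13829 and 12365 CPM, nearly all from Apoe and Glul, which microglia also express.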

Additional observations from a re-analysis of the deposited data

How the results depend on the processing

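None of the 9 genes was past 2-fold under any alternative run: library totals, DESeq2 size factors, scaling to pan-macrophage genes, TMM without ribosomal, mitochondrial, 7SK and 7SL genes, a prior count of 2, no filter or at least 1000 reads, taking out a length and GC trend, or asking also for an exact binomial test of the reads. Under library totals the summed ratio was -0.16, the median of the 9 -0.27 and that of the other homeostatic genes -0.13. For the developmental and disease-associated genes, an alternative added after seeing the data, the medians were then 0.54 and 0.43 (at least 1000 reads). Scaled to pan-macrophage genes the sum was 0.0134 and the other homeostatic median 0.0376. After trend removal these were -0.11 for the sum, -0.23 for the median and -0.15 for the other homeostatic genes. Trend removal was not run for the developmental and disease-associated genes. With at least 1000 reads 442 of 4619 genes (9.57%) were past 2-fold, against 5851 of 13037 (44.9%) with at least 20 reads. Of the other homeostatic genes 0 were past 2-fold, against 2 with at least 20 reads. Leaving out 1 gene gave sums of -0.00436 (Tmem119), -0.0456 (Olfml3), -0.0778 (Fcrls), -0.00193 (Siglech) and -0.00598 (Golm1), and medians of -0.20 (without Olfml3, Fcrls, Gpr34 or Selplg) and -0.18 (Golm1). The sign of the sum is thus not settled. The causes were not tested. No paired analysis was possible because each group had 1 library. Depth does not limit the 9 genes, and the lack of replicates does.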

Other observations

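Some of the 9 genes lie next to one another or next to genes with related roles, by gene order in RefSeq for GRCm38.p6. Tmem119 and Selplg are neighbours with no other protein-coding gene between them, and had log2 ratios of -0.29 and -0.11. The genes on the far sides had -0.04 (Iscu) and 0.16 (Coro1c). Crybb1 overlaps Cryba4 and is followed by Tpst2, whose product sulfates the Selplg protein. Their ratios were -0.26, 1.24 and 0.50, so the overlapping crystallin genes had opposite signs. Gpr34 overlaps Cask, which had 47 and 448 reads against 4102 and 4004 for Gpr34, and is next to Gpr82 with 28 and 73. These pairs were picked for their roles or overlap after the values were seen. Among the other neighbours Mn1, before Crybb1, had 106 and 31 reads (1.94), Cd5l, after Fcrls, had 59 and 0 reads, Kirrel, before Fcrls, had a ratio of 0.50, and Hipk1, after Olfml3, had -0.47.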
